A study of Mus musculus with 15 samples.

Results

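The genes described here build the mitochondrial pyruvate carrier and the pyruvate dehydrogenase complex: the carrier subunits Mpc1 and Mpc2, the E1 subunits Pdha1 and Pdhb, the E2 subunit Dlat, the E3 subunit Dld, and the kinases Pdk1, Pdk2 and Pdk4. They were picked by name, and all 9 were present among the 9666 genes of the deposited table. RNA was sequenced in bulk from ventricular cardiomyocytes of wild-type C57BL/6 mouse hearts, with no engineered allele and no treatment named in the labels. Libraries came from 3 ages: 4 from postnatal day 1 (P1), 4 from postnatal day 3 (P3) and 7 from adult mice aged 8 to 12 weeks. The study set neonatal heart muscle cells against adult ones. Whether the libraries of a group came from different mice is not stated, so each p-value reflects the scatter among libraries, part of which may be technical.

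Pyruvate, the end product of glycolysis, enters mitochondria through the carrier, which is a complex of MPC1 and MPC2. Inside, the pyruvate dehydrogenase complex turns it into acetyl-CoA: E1 removes carbon dioxide, E2 passes the acetyl group to coenzyme A on a lipoyl arm, and E3 reoxidises that arm. The pyruvate dehydrogenase kinases phosphorylate the E1 alpha subunit and switch the complex off, and dedicated phosphatases reverse this. Around birth the mammalian heart moves from glucose and lactate towards fatty acids as its main fuel, and the kinases are known as a brake on pyruvate use when fatty acids are burned. Pdk4 is the kinase best known for its rise on fasting, Pdk1 is known as a target of hypoxia-inducible factor, and Pdk2 is the widely expressed isoform.

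In the mm10 build the genes lie on separate chromosomes, all of them as protein-coding genes of GENCODE. Mpc1 spans 8282904 to 8297661 on chromosome 17, plus strand, and Mpc2 spans 165460637 to 165481214 on chromosome 1, plus strand. Pdha1 spans 160122209 to 160138413 on chromosome X, minus strand, and Pdhb spans 8165996 to 8173025 on chromosome 14, minus strand. Dlat spans 50634633 to 50659780 on chromosome 9, minus strand, and Dld spans 31331277 to 31351453 on chromosome 12, minus strand. Pdk1 spans 71873224 to 71903858 on chromosome 2, plus strand. Pdk2 spans 95026258 to 95041354 on chromosome 11, minus strand, and Pdk4 spans 5483351 to 5496309 on chromosome 6, minus strand. Mpc1, Pdha1 and Pdk2 each overlap a gene on the opposite strand, Mpc2 overlaps one on its own strand, and Mpc1 has a processed pseudogene, Mpc1-ps. Whether counting used strand is not given in the sources used here, and the share of reads that each gene of such a pair received is therefore uncertain.

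Promoters are shown for Mpc1, whose adult and neonatal levels were clearly apart, and for the 3 kinases, whose patterns differed most from each other. Each line gives the 250 bases before the gene's RefSeq start (GRCm38.p6), 5′ to 3′ on the gene's strand, with the CCAAT box (CCAAT, or ATTGG on the other strand) in capitals. For Mpc1 and Pdk4 that start lies inside the GENCODE gene span above, so the Mpc1 stretch lies wholly and the Pdk4 stretch partly within the span.
Mpc1, chr17:8283537-8283786, plus strand: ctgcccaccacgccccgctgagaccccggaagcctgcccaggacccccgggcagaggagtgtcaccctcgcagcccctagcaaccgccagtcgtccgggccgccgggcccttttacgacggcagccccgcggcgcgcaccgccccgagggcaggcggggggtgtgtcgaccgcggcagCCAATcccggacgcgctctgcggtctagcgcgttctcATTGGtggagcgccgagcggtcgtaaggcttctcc
Pdk1, chr2:71872974-71873223, plus strand: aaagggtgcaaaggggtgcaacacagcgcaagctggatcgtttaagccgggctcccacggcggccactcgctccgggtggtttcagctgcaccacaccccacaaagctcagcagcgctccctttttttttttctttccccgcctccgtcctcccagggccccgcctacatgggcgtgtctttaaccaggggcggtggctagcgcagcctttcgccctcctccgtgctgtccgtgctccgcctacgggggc
Pdk2, chr11:95041372-95041621, minus strand: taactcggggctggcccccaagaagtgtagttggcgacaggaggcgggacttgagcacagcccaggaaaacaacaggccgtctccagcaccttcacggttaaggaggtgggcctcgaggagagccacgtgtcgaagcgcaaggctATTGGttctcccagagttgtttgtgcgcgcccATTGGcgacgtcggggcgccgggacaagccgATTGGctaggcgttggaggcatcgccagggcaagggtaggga
Pdk4, chr6:5496279-5496528, minus strand: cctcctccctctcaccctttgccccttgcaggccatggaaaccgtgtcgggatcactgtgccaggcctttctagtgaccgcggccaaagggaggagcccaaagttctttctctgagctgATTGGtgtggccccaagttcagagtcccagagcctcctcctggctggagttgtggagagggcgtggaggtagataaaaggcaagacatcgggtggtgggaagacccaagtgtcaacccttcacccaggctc

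All 9 genes had an entry among the RefSeq promoters, and 5 motifs were searched on both strands of the 250 bases. The CCAAT box was present in 6 of the 9 genes (Mpc1, Mpc2, Pdhb, Dld, Pdk2 and Pdk4) and in 34.5% of all 27025 promoters. Pdhb and Pdk2 held 3 matches each and Mpc1 held 2, whereas Pdha1, Dlat and Pdk1 held none. The GC box (GGGCGG) was found in 5 of the 9 genes, against 32.9% of all promoters. The E-box CACGTG occurred in 1 gene, Pdk2, against 6.05% of all promoters. The TATA box (TATAAA) and an estrogen-related receptor element (TNAAGGTCA) matched 0 of the 9 genes, against 13% and 1.14% of all promoters. Only the first entry of each gene was counted, among the 9 genes and among all promoters, and the motif letters did not overlap each other. In the first entry of each gene GC content ran from 43.6% in Dld to 73.6% in Mpc1, with a median of 52% over all promoters.

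Several properties of the libraries touch the values below. Estimated depth, counted in 1e+06 reads, was 10.5 to 11.3 at P1, 9.5 to 13.6 at P3 and 6.3 to 17.2 in adult, with adult replicates 5 to 7 at 16.8 to 17.2 and adult replicates 1 to 4 at 6.3 to 11.1. The lowest number of reads behind a value was 100 for Pdk2, in P3 replicate 3, and between 179 and 1005 for Mpc1, Mpc2, Pdhb, Dlat, Dld and Pdk1, while reads could not be recovered for Pdha1 and Pdk4. P3 replicate 1 stood apart: its median rank correlation (Spearman, across genes) was 0.960 with P1 libraries and 0.923 with the other P3 libraries. P1 replicate 1 likewise had 0.945 with P3 libraries and 0.923 with the other P1 libraries, and its fibroblast marker level was 6.98, against 3.63 to 4.00 in the other P1 libraries. All 12 listed cardiomyocyte markers were in the table, with a mean log2 level of 5.19 or more in every library and their lowest levels at P3, where endothelial markers were at 5.97 to 7.33. RPKM, the reads of a gene divided by its length in kilobases and by the library's total reads, is relative to each library's total, and on this scale the median gene was 1.36 lower in adult than in P1 and 1.48 lower in adult than in P3 (log2).

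Each change below is a difference between group means of log2(RPKM + 0.5) with its standard error (SE), tested with limma across all 9389 genes that passed a filter on low values, as all 9 members did. A gene is called where its adjusted p is under 0.05 and the absolute change is at least 1.

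All 9 genes had their highest mean RPKM in adult, an intermediate mean at P1 and their lowest mean at P3. Pdhb had the highest mean of them at every age, with 224 RPKM at P1, 95.9 RPKM at P3 and 299 RPKM in adult. At P3 that rank rested on replicate 1, without which Pdhb had 58.2 RPKM and Pdha1 59.7 RPKM. In adult the next means were Mpc1 at 297 RPKM and Pdha1 at 292 RPKM, and the ranges of these 3 genes over the adult libraries overlapped. Mpc2 followed at 206 RPKM, Pdk4 at 162 RPKM, Dld at 156 RPKM, Pdk2 at 66.1 RPKM, Dlat at 55.8 RPKM and Pdk1 at 19.7 RPKM. The E2 subunit Dlat was therefore the least abundant transcript among the catalytic subunits in adult, as it was at P1 (44.3 RPKM) and at P3 (18.0 RPKM). Pdk4 had the highest mean of the 3 kinases at every age, and Pdk1 the lowest at P1 and in adult. At P3 the rank of Pdk4, with a mean of 23.9 RPKM, rested on replicate 1, without which Pdk4 and Pdk1 each had 10.4 RPKM.

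**Figure D1:**
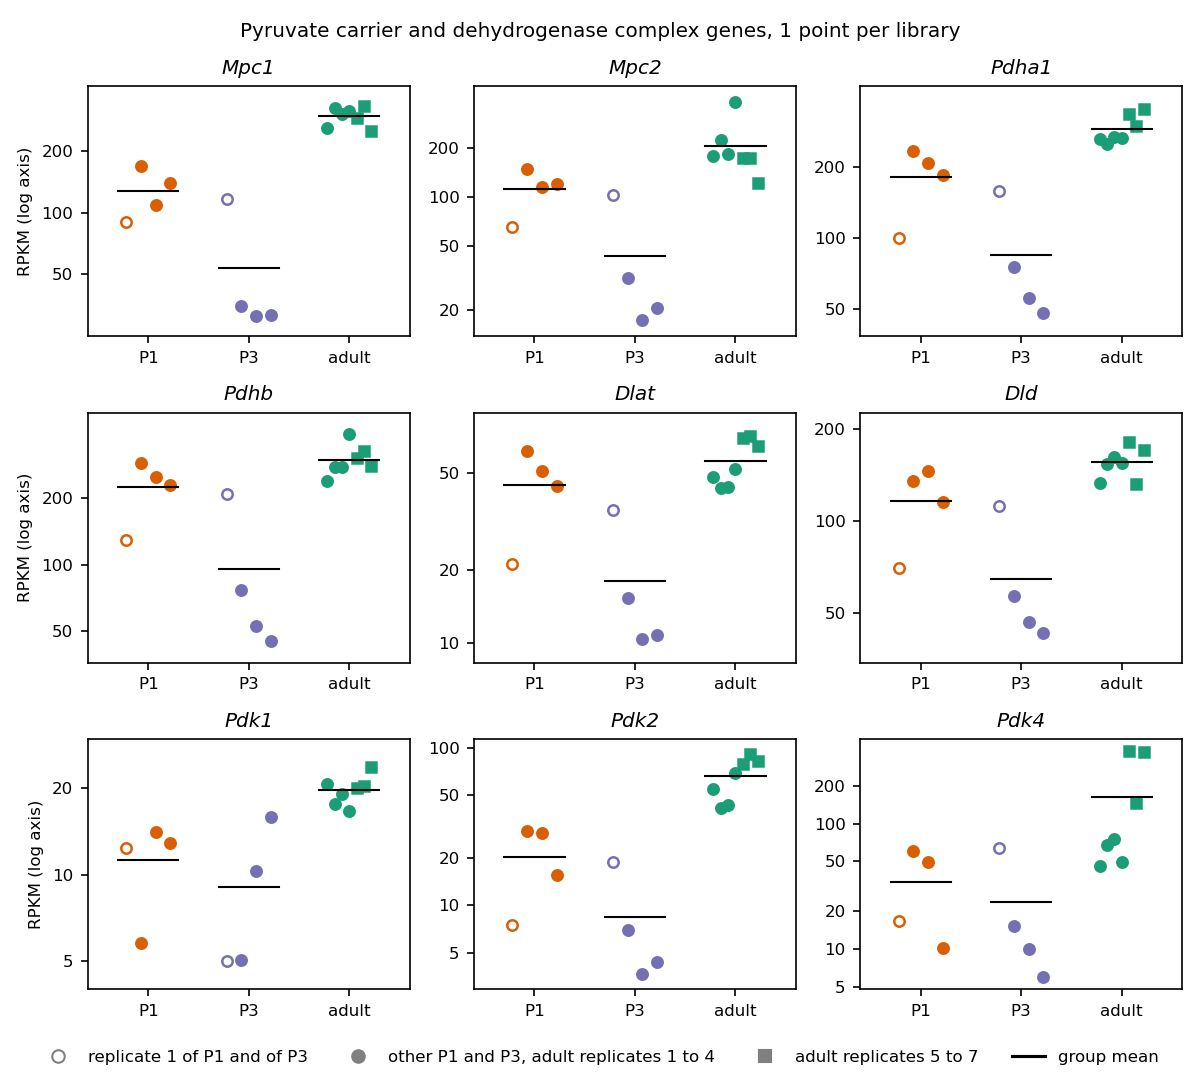
RPKM (log axis) of the 9 genes in each library, by age, with the group mean as a line. Open circles are replicate 1 of P1 and of P3, filled circles the other P1 and P3 libraries and adult replicates 1 to 4, and squares adult replicates 5 to 7. P3 replicate 1 lies above the other P3 libraries in every panel but that of Pdk1, and Pdk4 is higher in adult replicates 5 to 7 (146 to 377 RPKM) than in the other adult libraries (45.8 to 75.6 RPKM).

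Both carrier subunits were far higher in adult than at P3, and Mpc1 was also called higher in adult than at P1. Mpc1, without which no pyruvate carrier forms, had 252 (lowest), 303 (median) and 333 (highest) RPKM in adult libraries, against 89.6, 169.5, 109 and 139.6 RPKM in the 4 P1 libraries. No adult library overlapped a P1 library, and the adult level was 1.26 higher on the log2 scale (SE 0.31, limma adjusted p = 0.001). At P3 its libraries had 117, 35.1, 31.1 and 31.6 RPKM. The last 3 of these were below every P1 library, and the first was within the P1 range. The adult level of Mpc1 was 2.71 above P3 (SE 0.31, called). Between the neonatal days the difference was -1.45 (SE 0.35, limma adjusted p = 0.02), or -1.91 without P3 replicate 1.

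Mpc2, the partner subunit, had 122 (lowest), 179 (median) and 384 (highest) RPKM in adult, against 64.9, 148, 115 and 119 RPKM at P1. A single adult library, replicate 7, fell between P1 libraries, and the adult-to-P1 difference of 0.85 did not pass (SE 0.40, limma adjusted p = 0.053). It reached a call against P1 without P1 replicate 2 (1.01) and with adult replicates 1 to 4 alone (1.10). Adult replicate 4, with 384 RPKM, also had the shallowest library and the highest RPKM sum of the adults, and the next adult library had 225 RPKM. At P3 the libraries had 102, 31.5, 17.4 and 20.8 RPKM, again with replicate 1 apart from the rest. Adult exceeded P3 by 2.54 (SE 0.40, called) with no overlap of libraries. The P3 level was -1.68 relative to P1 (SE 0.45, limma adjusted p = 0.028), or -2.22 without P3 replicate 1.

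The E1 subunits, which carry out the first and rate-limiting step, were called higher in adult than at P3 but not than at P1. Pdha1, the X-linked alpha subunit that the kinases phosphorylate, had 252 (lowest), 268 (median) and 355 (highest) RPKM in adult, against 100.3, 235, 208 and 186 RPKM at P1. Every adult library was above every P1 library, yet the difference of 0.73 fell short of the fold threshold (SE 0.30, limma adjusted p = 0.031). The P3 libraries had 159, 75.7, 55.5 and 48.0 RPKM, all below the adults. The difference was 1.94 between adult and P3 (SE 0.30, called), and P3 was -1.20 relative to P1 (SE 0.34, limma adjusted p = 0.036), or -1.56 without P3 replicate 1.

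Pdhb, the beta subunit of E1, had 238 (lowest), 281 (median) and 390.3 (highest) RPKM in adult, against 130.0, 288, 250.05 and 229 RPKM at P1. The ranges overlapped widely, because 2 of the P1 libraries exceeded the lowest adult library. The difference of 0.46 did not pass (SE 0.34, limma adjusted p = 0.22). At P3 its libraries had 209, 76.7, 52.8 and 45.1 RPKM, and all were below the adults, by 1.91 on average (SE 0.34, called). P3 was -1.45 relative to P1 (SE 0.38, limma adjusted p = 0.028), or -1.92 without P3 replicate 1.

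Dlat and Dld followed the E1 pattern, being called higher in adult than at P3 but not than at P1. Dlat, whose product carries the lipoyl groups of the core, had 43.3 (lowest), 51.9 (median) and 70.5 (highest) RPKM in adult, against 21.1, 61.3, 50.9 and 44.1 RPKM at P1. Only P1 replicate 1 was below the adult range, and the difference of 0.40 did not pass (SE 0.32, limma adjusted p = 0.24), falling to 0.09 without that library. At P3 the libraries had 35.3, 15.3, 10.4 and 10.8 RPKM, all below the adults. Adult exceeded P3 by 1.77 (SE 0.32, called), and P3 was -1.36 relative to P1 (SE 0.36, limma adjusted p = 0.027), or -1.74 without P3 replicate 1.

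Dld, which serves the other 2-oxoacid dehydrogenases and the glycine cleavage system as well, had 133 (lowest), 155 (median) and 181 (highest) RPKM in adult, against 70.4, 135, 146 and 115 RPKM at P1. The groups overlapped, and the difference of 0.46 did not pass (SE 0.26, limma adjusted p = 0.11). Its P3 libraries had 112, 57.0, 46.7 and 43.1 RPKM, below every adult library, and adult was 1.36 higher (SE 0.26, called). Dld was the catalytic subunit with the smallest difference between P3 and P1, at -0.90 (SE 0.30, limma adjusted p = 0.06). Without P3 replicate 1 that difference was -1.20 and passed, as it did without P1 replicate 1 (-1.13).

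The kinases differed among themselves. Pdk2 was called higher in adult than at either neonatal age, and with all libraries its difference from P3 was the largest of the 9. With adult replicates 5 to 7 alone that of Pdk4 was larger, at 4.08 against 3.52 for Pdk2. It had 41.9 (lowest), 69.8 (median) and 91.1 (highest) RPKM in adult, against 7.52, 29.6, 28.9 and 15.5 RPKM at P1. No library overlapped, and adult was 1.80 higher (SE 0.40, limma adjusted p = 4.1e-04). The P3 libraries had 18.8, 6.96, 3.67 and 4.35 RPKM, and adult was 3.12 higher than P3 (SE 0.40, called). P3 was -1.32 relative to P1 (SE 0.45, limma adjusted p = 0.069) and did not pass. Without P3 replicate 1 the difference was -1.79 and passed, and without P1 replicate 1 it was -1.72 and passed.

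Pdk4 was the most variable of the 9 genes. Its adult libraries had 45.8, 67.7, 75.6 and 49.0 RPKM in replicates 1 to 4 and 377, 146 and 374 RPKM in replicates 5 to 7. The P1 libraries had 16.7, 60.5, 49.4 and 10.2 RPKM and the P3 libraries 64.3, 15.2, 9.96 and 5.99 RPKM. Adult replicates 5 to 7 were all above every neonatal library, whereas adult replicates 1 and 4 lay below the highest library of each neonatal age. Pdk4 was 2.06 higher in adult than at P1 (SE 0.68, limma adjusted p = 0.0094) and 2.81 higher than at P3 (SE 0.68, limma adjusted p = 8.4e-04). With adult replicates 1 to 4 alone the difference from P1 was 1.10 and lost its call (limma adjusted p = 0.12), and with replicates 5 to 7 alone it was 3.33. From P3 the matching differences were 1.86 and 4.08, both called. P3 and P1 differed by -0.75 (SE 0.77, limma adjusted p = 0.54), or -1.42 without P3 replicate 1, and neither passed.

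Pdk1 was the least abundant of the 9 genes at P1 and in adult, and the one whose P3 level was nearest to that of P1. It had 16.7 (lowest), 19.97 (median) and 23.6 (highest) RPKM in adult, against 12.4, 5.80, 14.0 and 12.9 RPKM at P1. All adult libraries exceeded all P1 libraries, yet the difference of 0.84 was under the fold threshold (SE 0.28, limma adjusted p = 0.01). At P3 it had 5.01, 5.07, 10.3 and 15.8 RPKM, below the adults, and adult was 1.23 higher (SE 0.28, limma adjusted p = 0.0005). P3 replicate 4, which was among the lowest 2 libraries for the other 8 genes, was the highest neonatal library for Pdk1. P3 and P1 differed by -0.39 (SE 0.32, limma adjusted p = 0.44), and by -0.17 without P3 replicate 1.

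Counted together, 3 of the 9 genes were called higher in adult than at P1 (Mpc1, Pdk2 and Pdk4), where 4.32% of all 9389 tested genes were called higher. In 4 of them (Mpc1, Pdha1, Pdk1 and Pdk2) every adult library lay above every P1 library, as it did in 4.86% of all genes. None of the 9 was called lower in adult (limma gave 0 calls, and 0 of the genes were lower even at an unadjusted p of 0.05), against 62.7% of all genes. In adult relative to P3, 9 of 9 were called higher, against 9.16% of all genes, and for 8 of them (all but Pdk4) no libraries overlapped, against 7.99% of all genes with every adult library above. The median change of the 9 genes was 0.84 for adult against P1 and 1.94 for adult against P3, beside -1.36 and -1.48 over all tested genes. Centring each library on its median gene turned all 9 into calls for both comparisons, with changes of 1.85 to 3.51 against P1, where 21.6% of all genes were then called higher, and 2.77 to 4.67 against P3, where 27.1% were. Both comparisons use the same adult libraries.

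Between the neonatal days, 5 of the 9 genes were called lower at P3 than at P1 (Mpc1, Mpc2, Pdha1, Pdhb and Dlat), against 5.31% of all tested genes, and 0 were called higher, against 1.4% of all genes. The median of the 9 changes was -1.32, beside 0.09 over all tested genes. These 5 calls depended on single libraries. Without P1 replicate 1, without P3 replicate 1 or without both, 7 genes were called, with Dld and Pdk2 added. Of all genes 9.47% were called lower without P3 replicate 1. Without both, 1090 of all tested genes were called lower, against 499 with all libraries. Leaving out any one of P1 replicates 2, 3 and 4 or P3 replicates 2, 3 and 4 gave 0 calls in limma, with 7 or 8 of the genes still under an unadjusted p of 0.05. With all libraries none of the 9 genes had every P3 library below every P1 library, against 2.53% of all genes, since P3 replicate 1 lay among P1 levels. Without it 7 did, all but Pdk1 and Pdk4, against 17.3% of all genes.

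**Figure D2:**
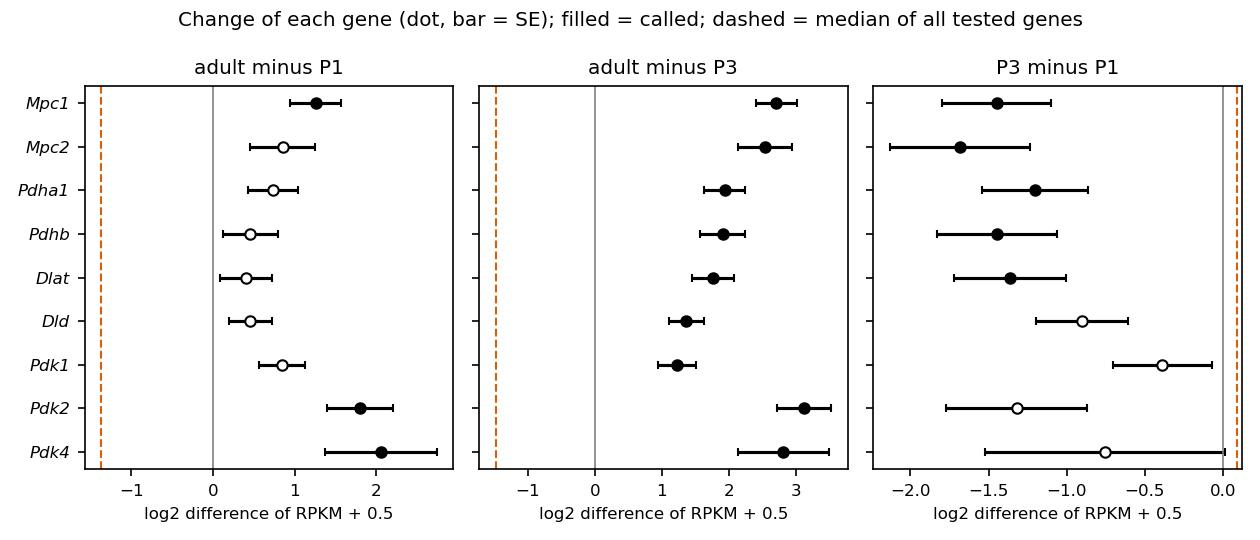
Log2 difference of each gene between ages in limma on RPKM + 0.5 (dot, with its SE as a bar), for adult minus P1, adult minus P3 and P3 minus P1. Filled dots passed an adjusted p of 0.05 and an absolute change of 1, and the dashed line is the median of all 9389 tested genes, at -1.36, -1.48 and 0.09. All 9 genes lie above that line in both comparisons with adult and below it between P3 and P1.

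The members were also set against markers of the cell types that such a preparation can hold. Cardiomyocyte markers, among them Myh6, Tnnt2 and Ryr2, had a mean log2 level of 9.30 to 10.13 in adult libraries, 7.56 to 8.87 at P1, and at P3 7.89 in replicate 1 and 5.19 to 5.99 in the others. Endothelial markers, 9 of 12 in the table, ran the other way, at -0.33 to 4.56 in adult, 4.35 to 5.45 at P1 and 5.97 to 7.33 at P3. Fibroblast markers, 4 of 8 in the table, ranged from -0.44 to 3.75 in adult, from 3.63 to 6.98 at P1 and from 4.49 to 5.93 at P3. Mural markers, 4 of 8 in the table, ranged from 2.44 to 3.74 in adult, from 2.90 to 3.91 at P1 and from 3.54 to 4.63 at P3. Of the immune, erythroid, epicardial and Schwann cell lists 0 genes were in the table, which holds genes above 0.1 RPKM in every library, and of 4 adipocyte markers 1, Fabp4, was. In bulk RNA fewer cells of a type and less RNA per cell cannot be told apart, and the part of cell mix in the differences of the 9 genes was not tested.

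Relative to cardiomyocyte markers the direction of the P3 to P1 difference was the opposite. The markers themselves were -2.38 at P3 relative to P1, 1.27 higher in adult than at P1 and 3.65 higher in adult than at P3. Subtracting their mean log2 level in each library left all 9 genes higher at P3 than at P1, by 0.69 for Mpc2 to 1.99 for Pdk1. For 8 of them, all but Pdk1, the P3 and P1 libraries then did not overlap. On the same scale all 9 genes were lower in adult than at P3, from -0.53 for Pdk2 to -2.42 for Pdk1. Between adult and P1 only Pdk2 (0.53) and Pdk4 (0.78) were above 0 on that scale, Mpc1 was at -0.02, and the other 6 ran from -0.42 for Mpc2 to -0.87 for Dlat. The subtraction shifts every gene of a library alike. The median tested gene, at 0.09 between P3 and P1 before it, therefore also rises on this scale, by more than any of the 9. In adult the median gene, at -1.48 against P3 and -1.36 against P1 before it, lies below each of the 9. The share of all genes without overlap on this scale was not computed. These are differences of log2 levels given as a description.

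**Figure D3:**
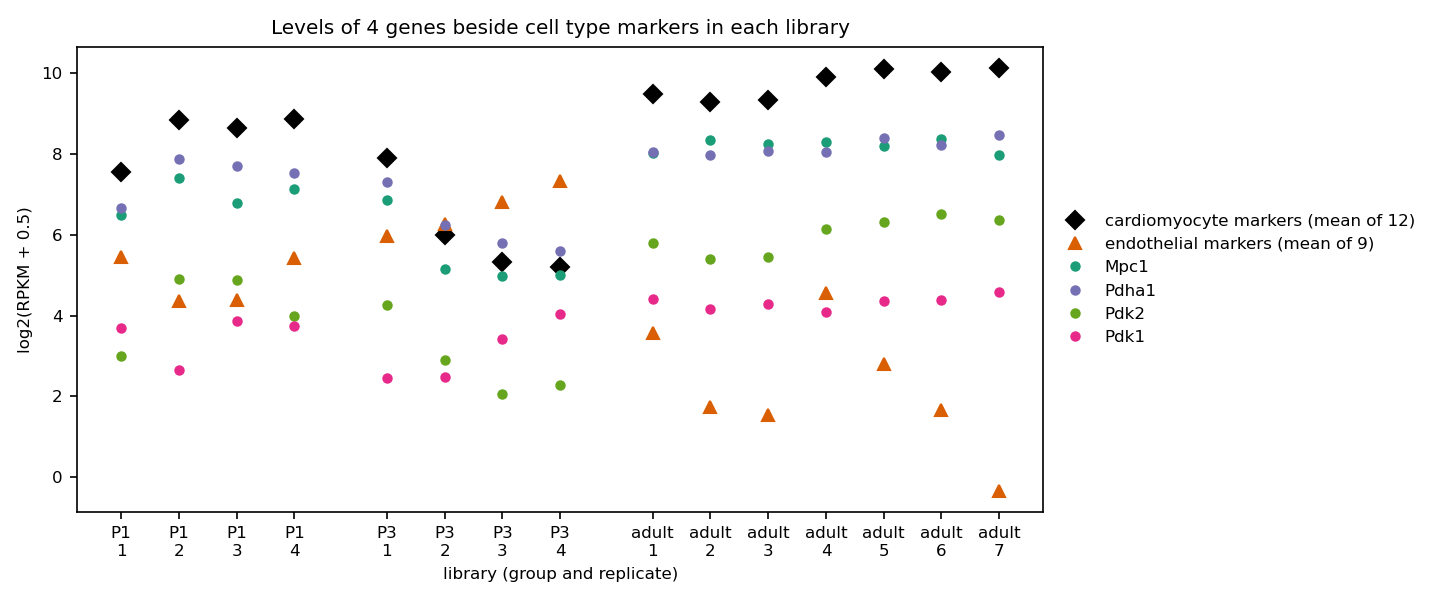
Log2(RPKM + 0.5) of Mpc1, Pdha1, Pdk2 and Pdk1 (circles) in each library, beside the mean log2 level of 12 cardiomyocyte markers (diamonds) and 9 endothelial markers (triangles). In P3 replicates 2 to 4 the cardiomyocyte markers are at 5.19 to 5.99 and the endothelial markers are as high or higher, while in adult libraries the cardiomyocyte markers are at 9.30 to 10.13.

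The balance between the kinase genes was described as shares of their summed RPKM, with the fourth kinase, Pdk3, included. Pdk3 had 13.4, 14.2, 13.0 and 12.5 RPKM at P1, 11.9, 7.76, 8.64 and 7.32 RPKM at P3, and 0.180 (lowest), 0.306 (median) and 0.495 (highest) RPKM in adult. Every adult library was far below every neonatal one, with as few as 4 reads, and adult differed by -4.12 from P1 and by -3.54 from P3 (limma adjusted p = 1.9e-12 and 6.9e-12). Its share of kinase RPKM was 12.3% to 26.8% at P1, 11.9% to 26.5% at P3 and 0.055% to 0.235% in adult. Pdk4 held 19.9% to 55.0% at P1, 17.9% to 64.3% at P3 and 36.1% to 79.2% in adult. Pdk2 held 15.03% to 30.4% at P1, 11.3% to 19.9% at P3 and 16.5% to 51.4% in adult.

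The leading kinase differed between libraries. Pdk4 was first in 3 of 4 P1 libraries, in 2 of 4 P3 libraries and in 5 of 7 adult libraries. Pdk2 led in P1 replicate 4, with 30.4%, and in adult replicates 1 and 4, with 45.3% and 51.4%. Pdk1 led only in P3 replicates 3 and 4, with 31.6% and 47.3%, and its share elsewhere was between 4.19% and 25.2%. The summed kinase RPKM was 50.1 (lowest) to 110.1 (highest) at P1, 32.6 to 100.04 at P3 and 122 to 480.2 in adult, so every adult library had more kinase transcript in all than any neonatal one.

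**Figure D4:**
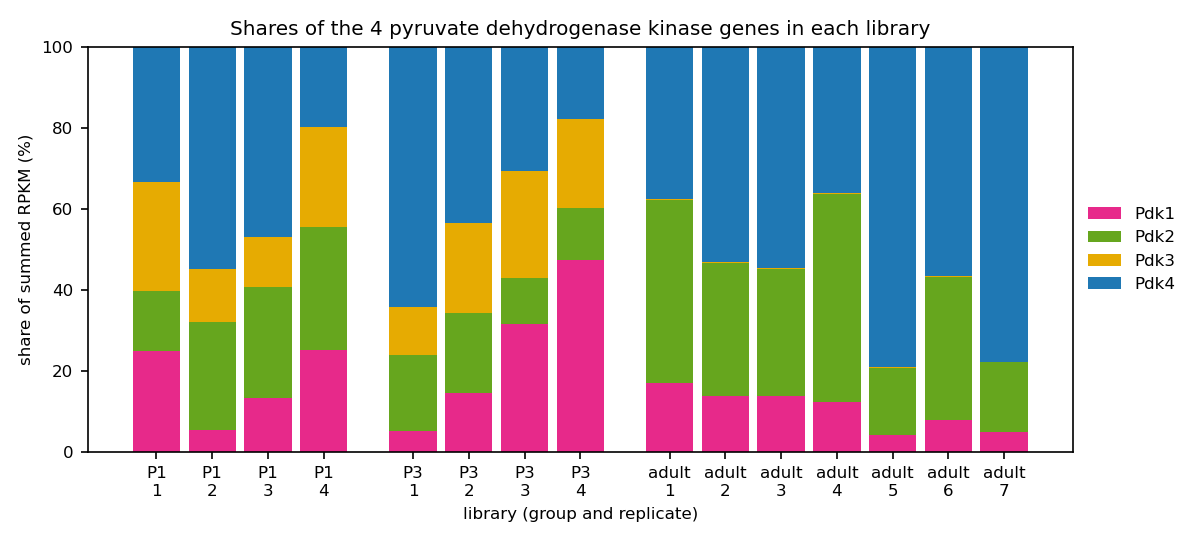
Share (percent) of each of the 4 pyruvate dehydrogenase kinase genes in their summed RPKM, 1 bar per library. Pdk3 holds 11.9% to 26.8% in neonatal libraries and at most 0.235% in adult ones, and Pdk4 holds the largest share, 79.2%, in adult replicate 5.

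Ratios of 2 genes within a library do not depend on how libraries are scaled, and 10 of them were compared between ages by a two-sided exact permutation test, with p-values adjusted over all 30 comparisons. The ratio of Pdk2, a kinase, to Pdha1, its substrate subunit, was 0.162 (lowest), 0.232 (median) and 0.304 (highest) in adult, against 0.075 to 0.138 at P1 and 0.066 to 0.118 at P3. Adult libraries overlapped neither neonatal age. The mean log2 ratio was 1.10 higher in adult than at P1 and 1.29 higher than at P3 (exact permutation p = 0.003 for each, the smallest that 330 splits allow, adjusted p = 0.045). This was the only ratio of the 10 that passed after adjustment. The 10 ratios were chosen with earlier results of these data known, which the adjustment does not take into account. The pass did not withstand smaller sets of libraries: when 1 library was left out, the adjusted p was 0.048 to 0.083 against P1 and 0.048 to 0.12 against P3 (exact permutation), with a pass in 2 of 11 sets each, those without adult replicate 6 or 7. In the other 9 sets, as in each adult set alone (adjusted p = 0.17 and 0.14), the libraries still did not overlap, and the unadjusted p was the smallest that the fewer splits allow. The difference was above 0 in both sets of adult libraries, at 0.94 with replicates 1 to 4 and 1.32 with replicates 5 to 7 against P1, and at 1.12 and 1.50 against P3.

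The other 9 ratios overlapped between ages. Mpc1 over Pdha1 was 0.78 higher in adult than at P3 (exact permutation p = 0.0061, adjusted p = 0.061) and 0.52 higher than at P1 (exact permutation p = 0.03, adjusted p = 0.15). Dlat over Pdha1 differed by -0.33 between adult and P1 (exact permutation p = 0.015, adjusted p = 0.091). Pdk1 over Pdk2 differed by -1.94 between adult and P3 (exact permutation p = 0.015, adjusted p = 0.091): it was 0.224 to 0.437 in adult and 0.266 to 3.63 at P3. The ratio of the carrier subunits, Mpc1 over Mpc2, lay between 0.818 and 2.07 in adult, 0.954 and 1.38 at P1, and 1.11 and 1.79 at P3. The ratio of the E1 subunits, Pdha1 over Pdhb, lay between 0.684 and 1.26 in adult, 0.772 and 0.834 at P1, and 0.761 and 1.06 at P3. Neither subunit ratio passed in any comparison, with adjusted p from 0.28 to 0.86 in the exact permutation tests. Between P3 and P1 0 of the 10 ratios passed, and 0 had an unadjusted exact permutation p under 0.05, where 0.029 was the smallest possible.

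Within adult, the 2 sets of libraries that differ in estimated depth also differed in some of the genes. Pdk4 had a mean RPKM 5.03 times as high in replicates 5 to 7 as in replicates 1 to 4, and 0.224% of all tested genes had at least this ratio, while the median gene stood at 1.22. Its log2 SD over the adult libraries was 1.30, a value reached by 0.927% of genes. Pdk2 (1.60 times), Dlat (1.45 times) and Pdha1 (1.26 times) were also higher in every library of replicates 5 to 7, as were 23.7% of all genes. Mpc2 was lower in each of them (0.643 times), as were 1.35% of all genes. Adult replicate 4, with 384 RPKM, weighs on that ratio, and replicate 1 (179 RPKM) was close to replicate 6 (174 RPKM). Mpc1, Pdhb, Dld and Pdk1 overlapped between the sets, with log2 SDs of 0.16 to 0.22 over the 7 adult libraries. The labels name no batch for these sets.

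For each of the 9 genes the 3 genes most like it were found by Pearson's r over the 15 libraries, after centring each library on its median gene, among 3566 tested genes with a mean of at least 10 RPKM. These r values share the 3 ages and the same libraries and are given as a description. Mpc1 was most like Atp5c1 (r = 0.997), a subunit of ATP synthase, followed by Chchd3 and Atp5f1. Mpc2 was most like Atp5g1 (0.997), another ATP synthase subunit, and then the complex I subunits Ndufa5 and Ndufb5. Pdha1 was most like Fsd2 (0.998), Sdha and Uqcrc2. Pdhb was most like Atp5b (0.998), Fabp3 and Suclg1, and Mfn2 and Rcan2 were among the 3 genes most like Dlat. Dld was most like Ptcd3 (0.997), Sucla2 and Hadhb. Pdk2 was most like Mylk3 (0.997), Hadha and Pfkm. Pdk1 and Pdk4 had lower best values: Bnip3 for Pdk1 (0.962) and the phosphate transporter Slc20a2 for Pdk4 (0.961).

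Other parts of the complex differed among themselves. Of 7 listed genes 5 were in the table, and apart from Pdk3, described above as called lower, 0 were called in adult against P1 in limma (1 higher at an unadjusted p under 0.05) and 2 were called higher against P3. Pdhx, which anchors E3 to the core, was called higher in adult than at P3 (1.64) and called lower at P3 than at P1 (-1.21), and was 0.43 against P1 (limma adjusted p = 0.21). The phosphatase regulator Pdpr was called higher in adult than at P3 (1.08, with overlapping libraries). The catalytic phosphatase genes did not pass in any comparison as deposited: Pdp1 was at 0.00 against P1 and 0.20 against P3 in adult, and Pdp2 at 0.71 and 0.60. Under the 5 other scalings Pdp2 was called higher in adult in 5 of 5, at 1.24 to 2.16 against P1 and 1.05 to 2.14 against P3, and Pdp1 in 3 of 5 against P1 and 4 of 5 against P3. Pdhx and Pdpr were likewise called higher than at P1 in 5 of 5. The median of the 5 genes was 0.43 for adult against P1 and 0.60 for adult against P3, beside -1.36 and -1.48 over all tested genes.

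Most genes for cofactor supply were not called. Of 10 genes for lipoate and thiamine supply in the table, 1 was called higher and 1 lower in adult against each neonatal age. Shares over all tested genes were 4.32% higher and 62.7% lower against P1, and 9.16% and 62.7% against P3. The gene called higher was Bola3, an iron-sulfur cluster factor needed to make lipoate, at 1.14 against P1 and 2.40 against P3. The gene called lower was Slc19a2, a thiamine transporter, at -3.04 against P1 and -2.49 against P3, the second of which lost its call in 1 of 5 scalings. Bola3 was also called lower at P3 than at P1 (-1.26). The median of the 10 genes was -0.55 for adult against P1 and 0.12 for adult against P3, beside -1.36 and -1.48 over all tested genes.

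The sister 2-oxoacid dehydrogenases, which use the same E3, leaned towards adult. Of 9 such genes in the table, including the glycine cleavage system, 5 were called higher in adult against each neonatal age and 0 lower (1 at an unadjusted p under 0.05 in limma). They were Ogdhl, an isoform of the 2-oxoglutarate dehydrogenase E1, at 3.91 against P1 and 4.57 against P3, the branched-chain phosphatase Ppm1k at 2.56 and 2.78, Bckdhb at 1.71 and 2.51, Bckdha at 1.62 and 1.98, and Ogdh at 1.22 and 2.41. Shares over all tested genes were 4.32% higher and 62.7% lower against P1, and 9.16% and 62.7% against P3. The list median was 1.22 for adult against P1 and 1.98 for adult against P3. Between P3 and P1 0 of the 9 were called in limma, with 4 lower at an unadjusted p under 0.05. Of all genes 1.4% were called higher and 5.31% lower there.

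Genes of other pyruvate and lactate routes split by gene. Of 13 in the table, 4 were called higher and 3 lower in adult than at P1, and 6 higher and 4 lower in adult than at P3. Across the 9389 genes, the rate of a higher call was 4.32% against P1 and 9.16% against P3. The rate of a lower call was 62.7% against both. In each comparison 11 of the 13 genes lay above the median gene. The alanine aminotransferases Gpt and Gpt2 were higher, at 2.79 and 1.61 against P1 and 2.98 and 1.40 against P3. Me3, a mitochondrial malic enzyme, was higher by 2.20 against P1 and 3.28 against P3, and Ldhb, the heart-type lactate dehydrogenase subunit, by 1.68 and 3.82. Me2, another malic enzyme, was at -2.76 against P1 and -2.93 against P3, and Pck2, the mitochondrial phosphoenolpyruvate carboxykinase, at -2.70 and -2.83. Ldha, the muscle-type lactate dehydrogenase subunit, was called lower, at -1.31 and -1.15, but ran from -0.61 to 0.26 and from -0.65 to 0.52 under 5 other scalings, with 0 calls. Between P3 and P1, Ldhb (-2.14) and the monocarboxylate transporter Slc16a1 (-1.39) were called lower.

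Downstream of the complex, 8 of 8 listed genes for the fate of acetyl-CoA were in the table. Between adult and P1, 2 were called higher and 2 lower, and between adult and P3, 6 higher and 2 lower. Shares over all tested genes were 4.32% higher and 62.7% lower against P1, and 9.16% and 62.7% against P3. Acss1, a mitochondrial acetyl-CoA synthetase, was higher by 5.17 and 5.77, and Acat1, the mitochondrial thiolase, by 1.69 and 2.60. Crat, carnitine acetyltransferase, was called higher against P3 (2.02), and at 0.69 against P1 it did not pass as deposited but was called in 5 of 5 other scalings. The genes called lower were Acly, the cytosolic ATP citrate lyase, at -3.27 and -3.79, and the citrate carrier Slc25a1, at -3.35 and -4.09. The list median was 0.64 for adult against P1 and 1.83 for adult against P3.

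Transcripts of 18 factors known to regulate Pdk genes were all in the table. In adult, 4.32% of the 9389 genes had a higher call against P1 and 9.16% against P3, and 62.7% had a lower call against each. Of the 18 factors, 14 lay above the median gene against P1 and 12 against P3. Between adult and P1, 3 factors were called higher and 5 lower, and between adult and P3, 5 higher and 7 lower. The higher calls held in 5 of 5 other scalings, whereas of the lower calls only those of Hif1a and Myc did, which is 2 of 5 genes against P1 and 2 of 7 against P3. Arnt, Nr3c1 and Foxo1 were the others against P1, joined by Epas1 and Pparg against P3, and each was called in at most 2 of 5 scalings. Ppara, the fatty acid receptor known to induce Pdk4, was higher by 1.51 against P1 and 2.41 against P3, and its coactivator Lpin1 by 1.56 and 2.06. The orphan receptor Esrrb was higher by 1.05 and 1.82, and the coactivator Ppargc1a by 1.59 against P3, with 0.25 and no call against P1. Hif1a, the hypoxia-inducible factor subunit known to induce Pdk1, was lower, at -3.36 and -3.63, and Myc was lower, at -5.29 and -5.74. Foxo1, known to induce Pdk4, was called lower against P1 (-1.20) but ran from -0.64 to 0.25 under 5 other scalings, with 0 calls, and against P3 it was at -2.32, called in 2 of 5 scalings. Between P3 and P1, Epas1 (1.25) and Foxo1 (1.12) were called higher and Esrrg (-2.21) and Esrra (-1.34) lower. The list median was -0.57 for adult against P1 and -0.79 for adult against P3, beside -1.36 and -1.48 over all tested genes.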

How the data were processed

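Total RNA was sequenced from 15 samples of ventricular cardiomyocytes, and the authors deposited 1 table of RPKM with a column for each. Per the submitters' processing notes, HISAT2, Partek 6.6 and the mm10 build were used, and no source used here gives the annotation, the counting options or the strand. The smallest deposited RPKM is 0.1001, and 0 fall at 0.1 or lower, so a gene under that level in any library is not analysed here. Among its gene names, 15 look like dates.

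The 9389 genes that reached 1 RPKM in 4 or more libraries entered limma 3.58.1 (R 4.3.3) as log2(RPKM + 0.5), with a coefficient for each age, eBayes with trend and Benjamini-Hochberg adjustment over all genes, two-sided. The pseudocount makes fold changes of low genes too small. The script was tested on simulated data. Depth was estimated from low values, which were whole multiples of 1 read in 357 of 400 sampled genes (89.2%, tolerance at least 0.02 reads), and in 0 after a random change of up to 1%. No count test was run, since reads could not be recovered for all genes. Intervals for RPKM values are not given.

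The text names the 9 members, the 3 genes most like each, and of each other list up to 4 called genes per direction and comparison and up to 2 not called. A gene that this rule names is not reported here. The members, lists and ratios were chosen with earlier results of these data known. Alternatives were other pseudocounts, no filter, 5 other scalings, robust eBayes, only the groups compared, each set of adults, a replicate block and leaving out libraries.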

Additional observations from a re-analysis of the deposited data

Results flagged for a closer look

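In 57 groups of values looked at (each member, each ratio, by age), 5 held a library far from the rest of its group, by the gap to its nearest neighbour relative to the whole range. Chance gives such a gap in about 1 in 20 groups, but these groups share libraries and genes and are not independent, so the number flagged cannot be weighed against that rate. In 3 of the 5 the library was P3 replicate 1, which had 117 RPKM for Mpc1, against 31.1 to 35.1 RPKM in the other P3 libraries, 102 RPKM for Mpc2, against 17.4 to 31.5 RPKM, and 64.3 RPKM for Pdk4, against 5.99 to 15.2 RPKM. Its cardiomyocyte marker level was 7.89, against 5.19 to 5.99 in the other P3 libraries, and the part of this in the levels of the 3 genes was not tested. The other 2 concern adult replicate 4. Its Mpc2 level was 384 RPKM, against 122 to 225 RPKM in the other adult libraries, and its log2 ratio of Mpc1 to Mpc2 was -0.29, the lowest of the adults. That library had an estimated depth of 6.3 (in units of 1e+06 reads) and an RPKM sum of 280112, where the other adult sums were 145050 to 195003.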

How the results depend on the processing

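All 17 calls of the 9 genes kept their direction and call under 2 other pseudocounts, no filter, robust eBayes and 5 other scalings (quantile normalization, median-of-ratios, an equal RPKM sum, the same without the 100 highest genes, and centring on the median gene). Over all alternatives 697 of the member changes kept their side of the threshold, 41 gained a call, 45 lost one and 0 changed sign. In adult relative to P1, the 5 scalings, in that order, gave 9 members called higher each (3 as deposited), 1697, 1914, 857, 1149 and 2032 genes higher (406 as deposited), and 1639, 1514, 3867, 2907 and 1282 lower (5887). Relative to P3 they gave 2174, 2386, 1610 and 2547 genes higher (860) and 2342, 2064, 3618 and 1797 lower (5891), the equal sum staying within 1.5 times. In P3 relative to P1 (131 genes higher, 499 lower, 5 members lower), median-of-ratios gave 78 higher, an equal sum 247, leaving out both replicates 1 gave 499 higher and 1090 lower, only the 2 groups compared gave 86 lower and 0 members, and adult replicates 1 to 4 alone gave 320 lower and 2 members. Leaving out 1 library at a time gave 353 to 445 genes higher and 5718 to 6027 lower, with 3 to 4 members higher and 0 lower, against P1; 794 to 971 higher and 5779 to 5987 lower, with 9 members higher and 0 lower, against P3; and 15 to 300 higher and 60 to 889 lower, with 0 members higher and 0 to 7 lower, in P3 relative to P1. The replicate block (shared replicate numbers as a term, adult replicates 1 to 4) gave 76 genes higher, 107 lower and 0 members lower in P3 relative to P1 (7 at an unadjusted p under 0.05). It gave 2 members higher in adult than at P1 and 9 than at P3. Same-numbered libraries deviated from their group means with correlations of -0.51 to 0.37. Values of mixed sign from such small groups cannot decide whether the numbers pair libraries, and the labels were not read as pairs. Over all alternatives 22 passes of a ratio were lost, all of Pdk2/Pdha1, and 2 were gained, by Dlat/Pdha1 (adult against P1, -0.38 without adult replicate 6) and Mpc1/Pdha1 (adult against P3, 0.86 without adult replicate 7). Ratios that did not pass changed sign as follows, and the cause was not tested. Over the sets that left out 1 library, Pdk4/Pdk2, adult minus P1, ranged from -0.15 (without P1 replicate 4) to 0.47, Pdk4/Pdk1, P3 minus P1, from -1.28 to 0.42 (without P3 replicate 4), Pdha1/Pdhb, adult minus P3, from -0.080 (without P3 replicate 1) to 0.12, Dld/Dlat, adult minus P1, from -0.050 (without P1 replicate 2) to 0.15, and Pdk4/Pdha1, P3 minus P1, from -0.069 (without P1 replicate 4) to 0.68. With adult replicates 1 to 4 alone, Pdk4/Pdk2 was -0.41 against P1, and against P3 Mpc1/Mpc2 was -0.072 and Pdha1/Pdhb -0.084. With adult replicates 5 to 7 alone, Pdk4/Pdk2 was 0.51 against P3 and Dld/Dlat -0.21 against P1. Depth limits Pdk3 in adult most, with as few as 4 reads.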
